A study of Mus musculus with 26 samples.

Results

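The Zscan4 family is a cluster of near-identical mouse genes, whose RNA was followed here in mouse embryonic stem cells (mESCs) by RNA-seq of 15 libraries. Every gene whose name in the deposited tables starts with Zscan4 was taken, which gave 6 of 24015 genes: Zscan4a, Zscan4b, Zscan4c, Zscan4d, Zscan4e and Zscan4f. As reads from such similar copies cannot be assigned to 1 of them with certainty, the values of the 6 genes were also added up in each library.

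The libraries came from Stella:GFP mESCs, a line with a green fluorescent transgene of the Stella gene, and fell into 7 conditions. For wt cells there was 1 library from serum+LIF and 2 from 2i+LIF, the medium with MEK and GSK3 inhibitors in which all lines were maintained. All other cells had spent 5 days in serum+LIF, as had the wt serum+LIF cells. They were Prdm14-/- cells (clones G6 and F10), the same 2 clones with FLAG-HA-tagged Prdm14 added back (FH-Prdm14) or with tagged Prdm14 carrying the substitution E294K, which lies on the surface that binds Mtgr1 (E294K), Mtgr1-/- cells of 3 clones (A3, C1, C3), and the same 3 clones with FLAG-HA-tagged Mtgr1 added back (FH-Mtgr1). Each knockout line was made with CRISPR-Cas9 and grown from 1 cell, and the rescue lines carry a tagged transgene in place of the normal gene. The depth was between 10668572 and 21218414 reads on genes per library (median 13793727). All 8 mESC markers, among them Pou5f1, Sox2 and Nanog, were at 1 RPKM or more in every library.

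Zscan4 proteins carry a SCAN domain, which binds other SCAN proteins, and zinc fingers, which bind DNA. In the mouse embryo the genes are transcribed when the zygotic genome is switched on, around the 2-cell stage. In mESC cultures they are known from a small and changing fraction of cells, which pass through a state with many transcripts of the 2-cell embryo, and from the lengthening of telomeres by recombination in such cells. Prdm14 is a zinc-finger regulator of pluripotency and germ cell formation, and Mtgr1, encoded by Cbfa2t2, is a corepressor that binds to it.

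The genes lie together on mouse chromosome 7. In the NCBIM37 assembly (also called mm9, the build to which the reads were aligned) with GENCODE M1 annotation, 5 of the 6 are protein-coding genes of 4 exons within chr7:11486098-11988090, a stretch of 501993 bases. Zscan4b (chr7:11486098-11490399), Zscan4d (chr7:11746992-11751497) and Zscan4e (chr7:11891727-11896031) are on the minus strand. The transcripts of Zscan4c (chr7:11591094-11595896) and Zscan4f (chr7:11983264-11987667) that have the lengths used in the tables are on the plus strand. Zscan4a has no entry by that name in this annotation, so no position is given for it.

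The coding sequences show how little separates the copies, and a stretch is given for each of the 5 annotated genes because it decides how far the values of single genes can be read. Of the 1521 positions of the Zscan4c coding sequence, 1456 (95.7%) had the same base in all 5. The most alike pairs were Zscan4b and Zscan4e, with 4 substitutions and 99.7% identity, and Zscan4c and Zscan4f, with 6 substitutions and 99.6% identity. The least alike pair was Zscan4b and Zscan4d, with 51 substitutions and 96.4% identity. The window of 60 bases with the most differing positions was at bases 636 to 695, counted from the first base of the Zscan4c start codon, and is printed 5′ to 3′ with capitals where a copy differs from Zscan4c:
Zscan4b: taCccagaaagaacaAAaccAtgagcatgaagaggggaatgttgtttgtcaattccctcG
Zscan4c: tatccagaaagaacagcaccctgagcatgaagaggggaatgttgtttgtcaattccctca
Zscan4d: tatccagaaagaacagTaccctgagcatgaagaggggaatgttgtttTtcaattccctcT
Zscan4e: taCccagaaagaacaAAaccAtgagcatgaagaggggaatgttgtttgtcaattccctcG
Zscan4f: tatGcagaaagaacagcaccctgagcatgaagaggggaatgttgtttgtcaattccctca
Even here Zscan4b and Zscan4e read the same. By contrast, the last 115 bases of the coding sequence were the same in all 5 genes, so that a read from within them matches each of the 5:
shared end: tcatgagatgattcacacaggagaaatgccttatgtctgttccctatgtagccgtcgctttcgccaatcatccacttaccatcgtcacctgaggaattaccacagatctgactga

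The study sequenced single-end reads of 76 or 51 bases, and which libraries had which length is not given in the sources used here. A stretch of 51 bases from an exon occurred at 1 place only in the genome for 3.13% of the positions in Zscan4f, 7.31% in Zscan4e, 7.44% in Zscan4b, 15.7% in Zscan4c and 51.004% in Zscan4d. With 76 bases the shares were 4.97%, 8.86%, 11.8%, 22.8% and 61.3%, respectively. Among these 5 genes, Zscan4d had the largest share at both lengths, and Zscan4a could not be assessed. Whether reads with several matches were counted, dropped or shared out is not stated, so differences in level between members are uncertain. The sum is less so, but it still depends on the split, since the gene lengths in the tables run from 1745 bases (Zscan4e) to 2276 bases (Zscan4c). A stretch of 51 bases occurred at up to 10 places in the genome, so that some copies lie outside the 6 genes.

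The summed level was high in both FH-Prdm14 libraries and low in all others. With FH-Prdm14 it was 83.2 RPKM in G6 (2199 reads) and 48.5 RPKM in F10 (1444 reads). RPKM is the number of reads scaled to the length of the gene and to the depth of the library. The same clones without added Prdm14 had 4.74 RPKM (G6, 111 reads) and 4.04 RPKM (F10, 107 reads). With the E294K form they had 5.66 RPKM (G6, 186 reads) and 6.93 RPKM (F10, 234 reads). The level of FH-Prdm14 cells was therefore 17.5 times that of Prdm14-/- cells in clone G6 and 12.0 times in clone F10, and the lowest FH-Prdm14 library was 5.19 times the highest of the 13 other libraries. Counted in reads, which does not involve gene length, the family made up 171 reads per 1e6 reads on genes in G6 and 99.9 in F10 with FH-Prdm14, and at most 19.2 elsewhere. In bulk RNA, more cells that express a gene cannot be told apart from more RNA per cell.

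The wt cells had 3.55 RPKM in serum+LIF (113 reads, exact Poisson 95% interval of counting error 2.93 to 4.27 RPKM) and 2.10 and 1.11 RPKM in 2i+LIF (45 and 29 reads). Mtgr1-/- cells had 6.98 RPKM in clone A3, 9.36 RPKM in clone C1 and 0.976 RPKM in clone C3. FH-Mtgr1 cells had 3.78 RPKM in A3, 2.64 RPKM in C1 and 0.796 RPKM in C3. Both libraries of clone C3 were below every other library, with 23 and 21 reads. The order of the condition means was wt 2i+LIF (1.61 ± 0.694 RPKM, SD, n = 2), FH-Mtgr1 (2.41 ± 1.51, n = 3), wt serum+LIF (3.55, n = 1), Prdm14-/- (4.39 ± 0.499, n = 2), Mtgr1-/- (5.77 ± 4.32, n = 3), E294K (6.30 ± 0.898, n = 2) and FH-Prdm14 (65.9 ± 24.5, n = 2). The libraries of neighbours in this order overlapped, except between wt serum+LIF and Prdm14-/- cells and between E294K and FH-Prdm14 cells.

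**Figure D1:**
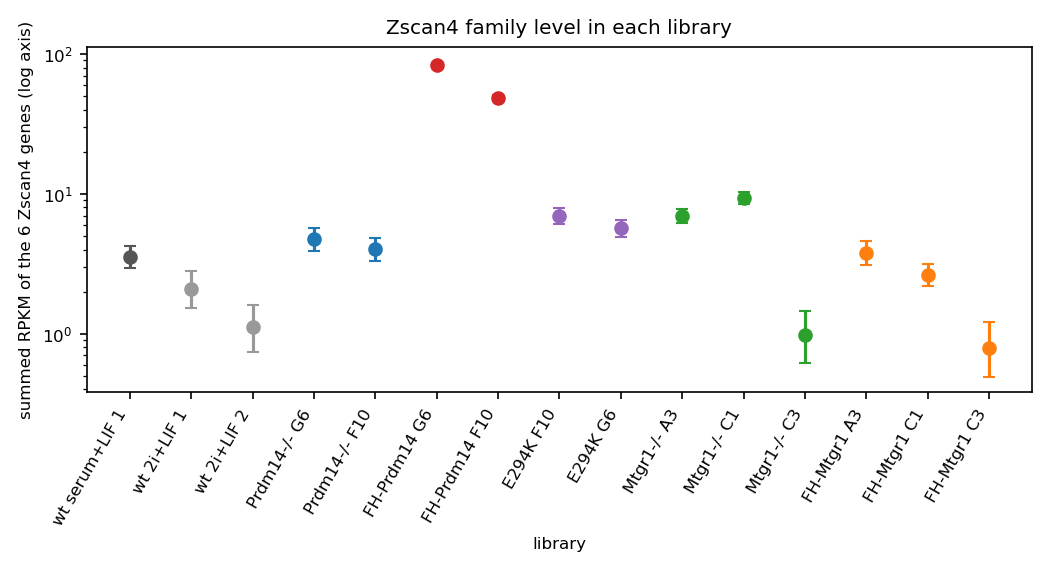
The summed RPKM of the 6 Zscan4 genes (vertical log axis) in each of the 15 libraries, coloured by condition, with bars for the exact Poisson 95% interval of the reads, which covers counting error only. The FH-Prdm14 libraries, at 83.2 and 48.5 RPKM, lie above all others, and both libraries of clone C3 lie at the bottom.

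Each member showed the same separation, but the members are not independent, since reads from 1 copy may have been counted for another. Zscan4a was at 24.7 RPKM (G6) and 13.5 RPKM (F10) in FH-Prdm14 cells, 0.879 and 1.07 RPKM in Prdm14-/- cells, and 1.11 and 1.86 RPKM in E294K cells. Zscan4f was at 21.6 and 13.1 RPKM in FH-Prdm14 cells, 1.27 and 1.19 RPKM in Prdm14-/- cells, and 0.962 and 1.10 RPKM in E294K cells, in the same order of clones. These were the members with the highest levels in FH-Prdm14 cells.
Zscan4c, the copy most often used to report the state in mESCs, was at 16.1 and 10.2 RPKM in FH-Prdm14 cells, 0.985 and 0.958 RPKM in Prdm14-/- cells, and 1.71 and 1.498 RPKM in E294K cells. Zscan4d, the main transcript of the 2-cell embryo, was at 11.9 and 6.91 RPKM in FH-Prdm14 cells, 0.866 and 0.547 RPKM in Prdm14-/- cells, and 0.978 and 1.25 RPKM in E294K cells. Zscan4d, with the largest share of unique positions among the 5 genes assessed, did not overlap between FH-Prdm14 and any other cells. The share of all genes for which this holds was not counted.
Zscan4e was at 5.49 and 3.21 RPKM in FH-Prdm14 cells, 0.395 and 0.223 RPKM in Prdm14-/- cells, and 0.756 and 1.01 RPKM in E294K cells. Zscan4b had the lowest level, with 3.33 and 1.66 RPKM in FH-Prdm14 cells, 0.344 and 0.0444 RPKM in Prdm14-/- cells, and 0.143 and 0.208 RPKM in E294K cells. In Prdm14-/- cells these values of Zscan4b stood for 7 reads and 1 read.

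In the 13 libraries without FH-Prdm14, Zscan4a ranged from 0.196 to 2.06 RPKM, Zscan4c from 0.173 to 2.14, Zscan4d from 0.157 to 2.14, Zscan4f from 0.0430 to 1.63, Zscan4e from 0 to 1.01 and Zscan4b from 0 to 0.378. The highest of these was in clone C1 of Mtgr1-/- cells for every member. Zscan4b had no read in 2 libraries (FH-Mtgr1 A3 and C3) and Zscan4e in 1 (Mtgr1-/- C3). The lowest FH-Prdm14 value was between 3.16 times (Zscan4e) and 8.01 times (Zscan4f) the highest value elsewhere. How many of all genes separate in this way was not counted.

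**Figure D2:**
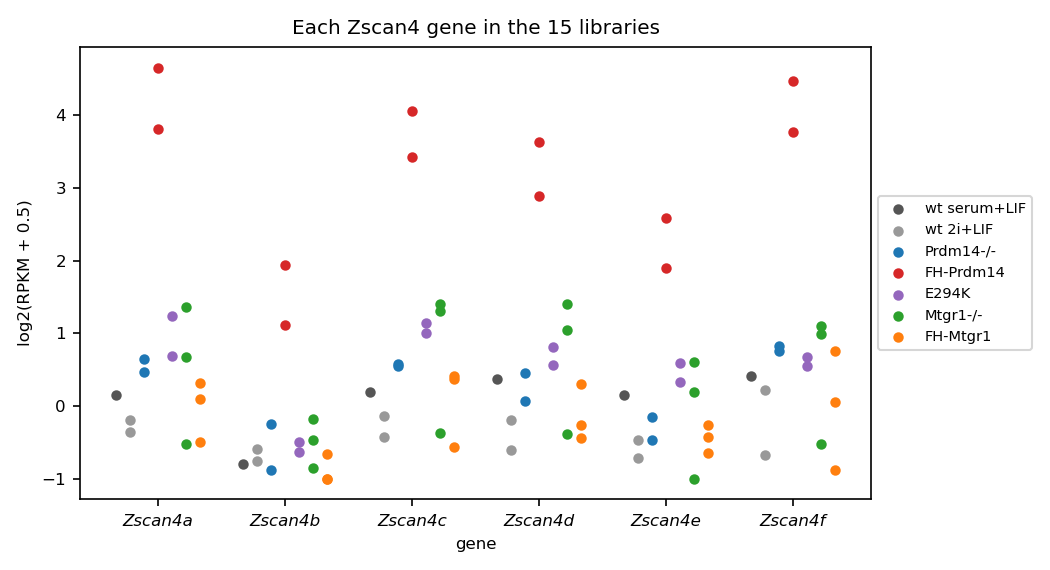
Levels of each Zscan4 gene as log2(RPKM + 0.5) (vertical axis), 1 point per library, coloured by condition. For every gene both FH-Prdm14 points lie above all other points, and the 3 points of Mtgr1-/- cells spread widely because clone C3 is low.

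The members kept similar shares of the family's reads in both FH-Prdm14 clones. Zscan4a made up 32.6% of them in G6 and 30.5% in F10, Zscan4f 23.1% and 23.96%, Zscan4c 21.4% and 23.3%, Zscan4d 13.9% and 13.8%, Zscan4e 5.59% and 5.61% and Zscan4b 3.41% and 2.91%. The medians over the 13 other libraries were 21.7% for Zscan4a, 18.1% for Zscan4f, 24.1% for Zscan4c, 18.0% for Zscan4d, 7.80% for Zscan4e and 2.71% for Zscan4b. The share of Zscan4a was higher in both FH-Prdm14 libraries than in any other library, where it reached 29.5% at most. Shares in the other libraries rest on 21 to 347 reads, and no difference in share was tested.

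The add-back of Prdm14 was compared with the knockout by limma on log2(RPKM + 0.5), with Benjamini-Hochberg adjustment over the 13477 genes that reached 1 RPKM in at least 2 libraries. Zscan4b passed this limit only through the FH-Prdm14 libraries and so had to differ in each comparison with them, and its values there are a description. The other 5 members were all higher in FH-Prdm14 than in Prdm14-/- cells, against 13.8% of all genes tested. As they may share reads, they are not 5 separate results. Zscan4a rose by 3.67 (standard error 0.49, adjusted p = 0.000265), which was rank 6 of the 13477 genes. Zscan4f rose by 3.32 (standard error 0.57, adjusted p = 0.00121), Zscan4c by 3.18 (0.51, adjusted p = 0.000807), Zscan4d by 3.003 (0.48, adjusted p = 0.000825), Zscan4e by 2.55 (0.42, adjusted p = 0.000960) and Zscan4b by 2.08 (0.32, adjusted p = 0.000622) on this log2 scale, on which changes of lowly expressed genes come out too small. The median over the members, Zscan4b included, was 3.09, against 0.09 over all genes tested. For the summed level the difference was 3.72 on the same scale, and the spread between libraries of a condition was 0.40 (SD, n = 2 per condition). Both clones showed the direction for every member.

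With E294K in place of the normal protein, the 5 members other than Zscan4b were lower than in FH-Prdm14 cells (13.2% of all genes tested were lower), and so was Zscan4b, which was bound to differ. Zscan4f fell by 3.50 (standard error 0.57, adjusted p = 0.00144, limma), Zscan4a by 3.27 (0.49, adjusted p = 0.000991), Zscan4c by 2.67 (0.51, adjusted p = 0.00365), Zscan4d by 2.57 (0.48, adjusted p = 0.00331), Zscan4b by 2.09 (0.32, adjusted p = 0.00103) and Zscan4e by 1.77 (0.42, adjusted p = 0.0116). The summed level in E294K cells was 0.0681 times that of FH-Prdm14 cells in clone G6 and 0.143 times in clone F10. The call for Zscan4e was lost without the FH-Prdm14 library of G6 (adjusted p = 0.118), without the E294K library of F10 (adjusted p = 0.0561) or of G6 (adjusted p = 0.0854), with a pseudocount of 0.1 (adjusted p = 0.103) and with voom (adjusted p = 0.0523). This comparison shares the FH-Prdm14 libraries with the one before it.

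Against the knockout itself, none of the 6 members passed the threshold in E294K cells by limma (32.9% of all genes tested did, in either direction), none had an unadjusted p under 0.05, and voom called none. The differences were between -0.18 (Zscan4f, 95% interval -1.41 to 1.05) and 0.78 (Zscan4e, -0.13 to 1.68, adjusted p = 0.166). For Zscan4a the interval was -0.66 to 1.48, and for Zscan4d -0.62 to 1.47, so that a rise as large as with FH-Prdm14 lies outside these intervals, but a smaller one does not. The summed level was above that of Prdm14-/- cells in both clones, at 1.19 times in G6 and 1.72 times in F10. Its libraries did not overlap, but how many of all genes separate in this comparison was not counted. In G6 the exact Poisson 95% intervals of counting error overlapped (4.88 to 6.54 against 3.90 to 5.71 RPKM), and in F10 they did not. When no other condition entered the fit, Zscan4e passed the threshold (adjusted p = 0.0335).

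**Figure D3:**
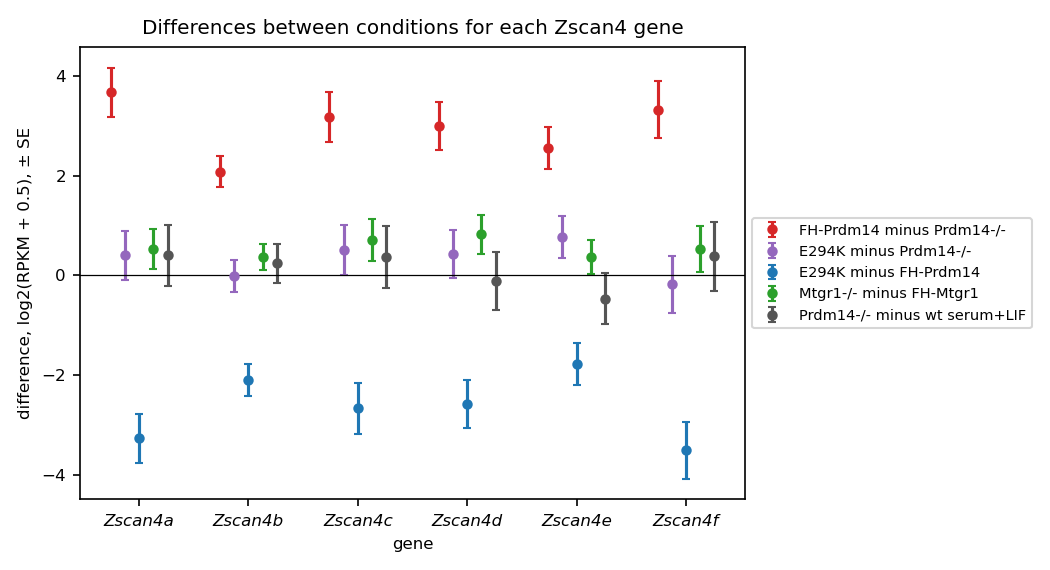
Differences between conditions on the log2(RPKM + 0.5) scale with standard errors from limma (vertical axis) for each Zscan4 gene, coloured by comparison. FH-Prdm14 minus Prdm14-/- is between 2.08 and 3.67, E294K minus FH-Prdm14 between -3.50 and -1.77, and the other comparisons shown lie between -0.47 and 0.82.

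The RNA of the 2 forms of Prdm14 did not differ to this extent. Prdm14 was at 116 RPKM (G6) and 79.8 RPKM (F10) in FH-Prdm14 cells and at 105 RPKM (G6) and 89.9 RPKM (F10) in E294K cells. The difference was 0.01 on the log2 scale (standard error 0.38, adjusted p = 0.989, limma). Wt cells had 2.77 RPKM of Prdm14 in serum+LIF and 30.8 and 19.1 RPKM in 2i+LIF, where the Zscan4 sum was lowest among the condition means. Prdm14-/- cells still had 1.96 RPKM (G6) and 3.60 RPKM (F10) of Prdm14. As these clones make an altered transcript, its level is no check of the knockout. Of the 2 FH-Prdm14 clones, G6 had more RNA of Prdm14 and of Zscan4, and of the 2 E294K clones, G6 had more Prdm14 and less Zscan4.
Cbfa2t2, which encodes Mtgr1, was at 27.4 (G6) and 30.3 RPKM (F10) in FH-Prdm14 cells and at 31.4 (G6) and 32.6 RPKM (F10) in E294K cells. It was at 19.9, 18.6 and 18.0 RPKM in clones A3, C1 and C3 of Mtgr1-/- cells and at 28.0, 26.7 and 25.5 RPKM in the FH-Mtgr1 cells of those clones. No relation of Zscan4 with Cbfa2t2 across libraries was tested.

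**Figure D4:**
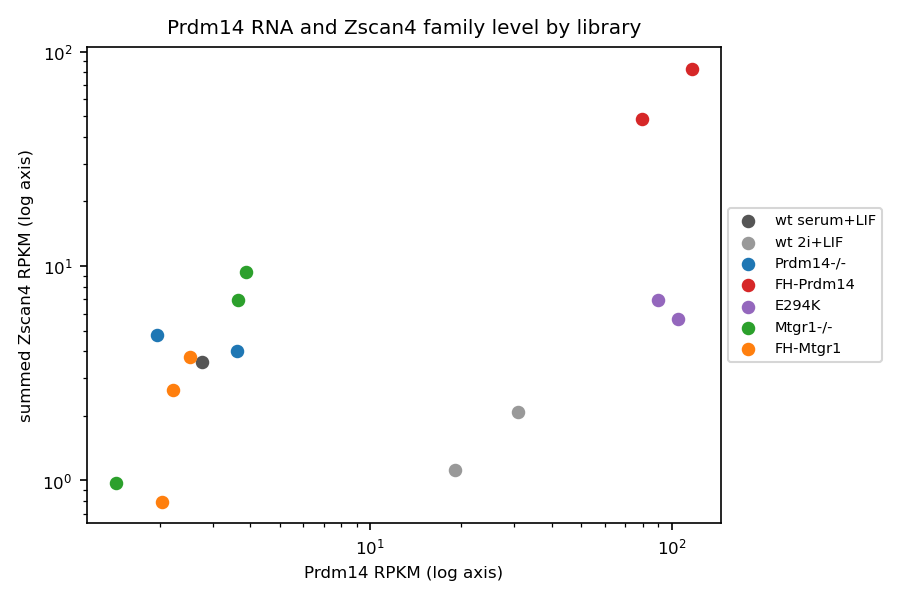
The RPKM of Prdm14 (horizontal log axis) and the summed RPKM of the 6 Zscan4 genes (vertical log axis), 1 point per library, coloured by condition. The FH-Prdm14 and E294K points lie at similar Prdm14 levels, between 79.8 and 116 RPKM, but at Zscan4 sums of 48.5 to 83.2 RPKM and 5.66 to 6.93 RPKM.

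The level in FH-Prdm14 cells was also above that of cells in which Prdm14 had not been deleted. Against the single wt serum+LIF library the 5 members other than Zscan4b were higher (6.92% of all genes tested were), by 2.08 (Zscan4e, adjusted p = 0.0232, limma) to 4.08 (Zscan4a, adjusted p = 0.00191). So was Zscan4b, which was bound to differ from any other cells. Without the FH-Prdm14 library of clone G6, 3 of the 6 calls were lost, those of Zscan4d (adjusted p = 0.0705), Zscan4e (adjusted p = 0.128) and Zscan4f (adjusted p = 0.0505). The call for Zscan4e was also lost with a pseudocount of 0.1 (adjusted p = 0.122) and with voom (adjusted p = 0.100). As wt serum+LIF has 1 library, its spread is taken from the other conditions. Against wt 2i+LIF cells the members other than Zscan4b were all higher (15.5% of all genes tested), by 2.83 (Zscan4e) to 4.51 (Zscan4a, adjusted p = 6.07e-05), and Zscan4b by 2.20. Against FH-Mtgr1 cells, the other rescue, they were also all higher (26.2% of all genes tested), by 2.69 (Zscan4e) to 4.26 (Zscan4a, adjusted p = 3.78e-05), and Zscan4b by 2.41. Of the genes called, 66.04% were higher in the comparison with 2i+LIF and 63.1% in that with FH-Mtgr1, and 53.9% and 52.6% after median-of-ratios scaling.

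None of the 6 members passed the threshold in Prdm14-/- against wt serum+LIF cells (25.4% of all genes tested did), in 2i+LIF against serum+LIF wt cells (22.9%) or in Mtgr1-/- against wt serum+LIF cells (37% of all genes tested) by limma, none had an unadjusted p under 0.05 there, and voom called none. In Prdm14-/- cells the differences from the wt library ran from -0.47 (Zscan4e, 95% interval -1.58 to 0.64) to 0.40 (Zscan4a, -0.91 to 1.71). In 2i+LIF they ran from -0.77 (Zscan4d, -2.05 to 0.51) to 0.13 (Zscan4b, -0.72 to 0.97), with 5 of the 6 below 0. In Mtgr1-/- cells they ran from -0.23 (Zscan4e, -1.27 to 0.82) to 0.59 (Zscan4c, -0.68 to 1.87). Without clone C3 of the Mtgr1-/- cells, Zscan4c passed the threshold against wt cells (adjusted p = 0.0378).

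The comparison of Mtgr1-/- with FH-Mtgr1 cells asked the same of Mtgr1. The sum in Mtgr1-/- cells was 1.84 times that in FH-Mtgr1 cells in clone A3, 3.54 times in C1 and 1.23 times in C3. All 6 members were higher without Mtgr1 in A3 and in C1, and 4 of the 6 in C3, where they had 7 reads or fewer each. None of the 6 passed the threshold between Mtgr1-/- and FH-Mtgr1 cells by limma (52.3% of all genes tested did), and none had an unadjusted p under 0.05 or was called by voom. The differences ran from 0.38 (Zscan4e, 95% interval -0.36 to 1.12) to 0.82 (Zscan4d, -0.03 to 1.68, adjusted p = 0.0962).
The result depended on clone C3, whose libraries were low in both states, and on whether the clone was taken as a replicate block. A fit without only the Mtgr1-/- library of C3 keeps its low FH-Mtgr1 library. Without the Mtgr1-/- library of C3, 4 of the 6 members were called, namely Zscan4d (1.36, adjusted p = 0.00259), Zscan4c (1.28, adjusted p = 0.00395), Zscan4e (0.84, adjusted p = 0.0153) and Zscan4a (1.05, adjusted p = 0.0189), all with limma, while 24.2% of all genes tested were higher in that fit. Leaving out both libraries of C3, which was decided on with the values in view, gave 3 calls: Zscan4c (0.96, adjusted p = 0.00579), Zscan4d (1.21, adjusted p = 0.0101) and Zscan4e (0.74, adjusted p = 0.0455), beside 21.4% of all genes tested. With the clone as a replicate block, 1 was called, Zscan4c (0.71, adjusted p = 0.0232), beside 24.8% of all genes tested.

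The change with Prdm14 was then set against the change with Mtgr1 in 1 model. This test was chosen after the values were seen. The 2 changes differed for all 6 members, Zscan4b, which was bound to differ, included (17.1% of all genes tested were called in this direction), by 2.46 (Zscan4b) to 4.21 (Zscan4a) on the log2 scale. The clones and the added genes differ between these groups and cannot be told apart from the effect of the protein.

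The genes on both sides of the cluster were silent. Vmn1r70, Nlrp4b, Vmn1r72, Vmn1r73 and Vmn1r74, which are among the nearest 3 genes with a value on each side, had no read in any of the 15 libraries, and Vmn1r71 had a value above 0 in 1 library, at 0.0238 RPKM. Vmn1r genes encode pheromone receptors, and Nlrp4b belongs to a family expressed in oocytes. Without reads these genes give no comparison between conditions. Of the 11 other genes of the table named Zscan, which also encode SCAN and zinc-finger proteins, 2 were higher in FH-Prdm14 than in Prdm14-/- cells and none lower, a share near the 13.8% of all genes tested, with a median difference of 0.08 against 3.09 for the Zscan4 members. These were Zscan5b (1.05, adjusted p = 0.0473) and Zscan20 (0.61, adjusted p = 0.0431), and both calls were lost without single libraries (adjusted p up to 0.412 for Zscan5b, without Prdm14-/- G6, and up to 0.245 for Zscan20, without FH-Prdm14 G6). With the clone as a replicate block they were lost as well (adjusted p = 0.0964 for Zscan5b and 0.0911 for Zscan20).

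The promoters of the members are also alike. Part of the region before the annotated start is shown for the 5 annotated genes, because it holds a stretch that resembles part of the motif of Dux, a homeobox factor that activates genes of the 2-cell embryo. The sequences are 130 bases each from NCBIM37, 5′ to 3′ on the strand of the gene, and capitals mark the 9 bases that face TGATTCAAT of Zscan4c. They come from chr7:11490454-11490583 (Zscan4b, minus strand), chr7:11590887-11591016 (Zscan4c, plus), chr7:11751586-11751715 (Zscan4d, minus), chr7:11896086-11896215 (Zscan4e, minus) and chr7:11983080-11983209 (Zscan4f, plus):
Zscan4b: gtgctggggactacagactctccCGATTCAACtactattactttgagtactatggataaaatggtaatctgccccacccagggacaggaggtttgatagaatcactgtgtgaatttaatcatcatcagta
Zscan4c: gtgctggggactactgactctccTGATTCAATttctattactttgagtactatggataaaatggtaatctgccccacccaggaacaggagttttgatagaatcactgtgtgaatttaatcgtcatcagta
Zscan4d: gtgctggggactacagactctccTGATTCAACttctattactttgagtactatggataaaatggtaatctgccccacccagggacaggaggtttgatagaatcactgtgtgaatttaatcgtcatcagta
Zscan4e: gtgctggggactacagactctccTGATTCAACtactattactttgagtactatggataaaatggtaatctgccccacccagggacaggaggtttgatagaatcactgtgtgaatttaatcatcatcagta
Zscan4f: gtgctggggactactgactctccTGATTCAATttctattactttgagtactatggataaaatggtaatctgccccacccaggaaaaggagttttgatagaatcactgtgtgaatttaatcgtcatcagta
Over these bases Zscan4f differed from Zscan4c at 1 position, Zscan4d at 4, Zscan4e at 6 and Zscan4b at 7.

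The letters TGATTNAAT, where N is any base, were searched on both strands from 250 bases before to 50 bases after the start of each gene. Zscan4c and Zscan4f held them at 161 bases before the annotated start of the gene. For Zscan4c the bases before that start end at chr7:11591070, while the transcript given above starts at chr7:11591094. Zscan4b and Zscan4e held them on the opposite strand at another place, 72 bases before the start, where ATTTAATCA is read in the gene's direction, and Zscan4d held no match. In all, 4 of the 5 windows had a match, against 144 of 22380 windows of protein-coding genes (0.643%). As the windows are near copies of each other, their matches are not separate cases, and no enrichment can be read from these shares. GGTCTCTAA, the core of the motif of Prdm14, was in none of the 5 windows and in 47 of the 22380 (0.210%), and the search did not allow mismatches.

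Other genes of the 2-cell-like state were also high in FH-Prdm14 cells. A list of 39 such genes had 36 in the table, of which 6 were at 0 in every library and 25 passed the limit on low values, 14 of them also without the FH-Prdm14 libraries. Both FH-Prdm14 libraries were above both Prdm14-/- libraries for 29 of the 36 genes, against 29.3% of all genes in the table. Both E294K libraries were below both FH-Prdm14 libraries for 28 of the 36, against 32.8% of all genes. Of the 14 that did not depend on the FH-Prdm14 libraries to be tested, 14 were higher in FH-Prdm14 than in Prdm14-/- cells by limma (13.8% of all genes tested). In E294K against FH-Prdm14 cells 12 of them were lower (13.2% of all genes tested).
Sp110, a nuclear body protein, was at 44.2 (G6) and 25.7 RPKM (F10) in FH-Prdm14 cells, 1.66 and 1.90 RPKM in Prdm14-/- cells and 1.21 and 1.36 RPKM in E294K cells. It rose by 3.91 (standard error 0.40, adjusted p = 4.66e-05, limma) with FH-Prdm14. Gm8300 (31.1 and 17.4 RPKM in FH-Prdm14 cells), Tmem92 (22.2 and 12.1) and Zfp352 (8.16 and 4.95), a zinc-finger gene of the early embryo, differed by 3.53, 3.41 and 3.37. Zfp352 was at most 0.643 RPKM elsewhere and was tested only through the FH-Prdm14 libraries, so its difference is a description. The list includes families of near-identical copies such as Usp17l and Tdpoz, to which the doubt about single copies applies as well.

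**Figure D5:**
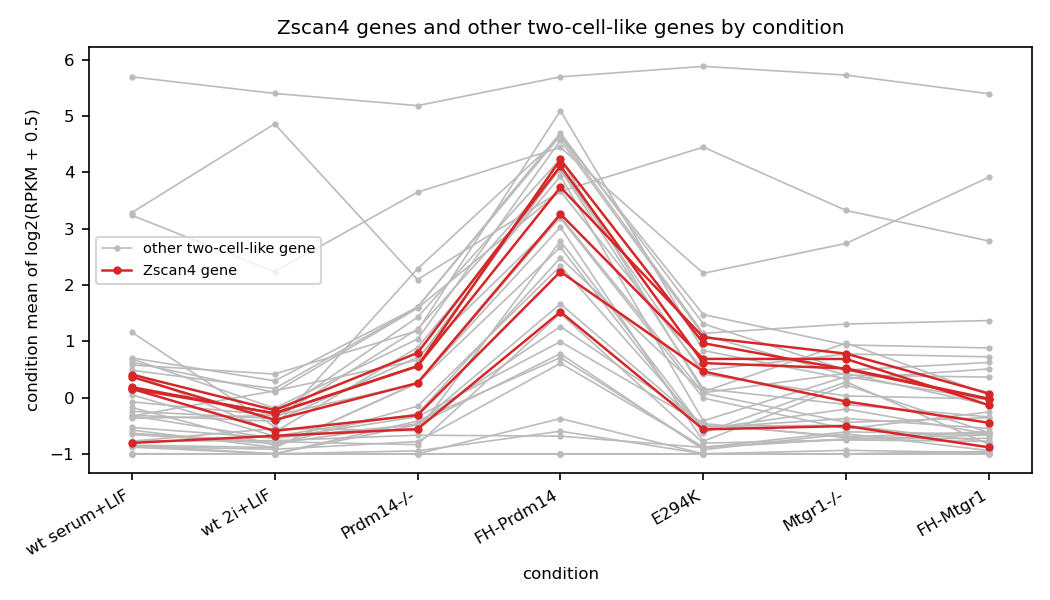
Condition means of log2(RPKM + 0.5) (vertical axis) for the 6 Zscan4 genes (red) and the 36 other genes of the 2-cell-like list in the table (grey), 1 line per gene, over the 7 conditions. All Zscan4 lines peak at FH-Prdm14, as do most of the grey ones.

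Among 6 activators of the 2-cell-like state in the table, 4 were higher in FH-Prdm14 than in Prdm14-/- cells and none lower, against 13.8% and 11.4% of all genes tested. Dux was at 24.1 (G6) and 11.7 RPKM (F10) in FH-Prdm14 cells, 0.979 and 0.885 RPKM in Prdm14-/- cells, and 0.496 and 0.752 RPKM in E294K cells. It rose by 3.60 with FH-Prdm14 (standard error 0.42, adjusted p = 0.000116, limma). Both FH-Prdm14 libraries were above both Prdm14-/- libraries, as they were for 29.3% of all genes in the table. Nelfa, a subunit of the negative elongation factor, was at 131 and 90.5 RPKM in FH-Prdm14 cells and rose by 1.70 (adjusted p = 0.000130). Tbx3, a pluripotency factor, rose by 2.62 (adjusted p = 0.00105), from 10.1 and 10.6 RPKM to 66.5 and 66.1 RPKM. Dppa2 was the fourth (1.39, adjusted p = 0.0384), and its call was lost in each of the fits without 1 of the 4 libraries (adjusted p up to 0.195, without FH-Prdm14 G6), and likewise under the replicate block by clone (adjusted p = 0.0710).
Unlike the other 3, Dppa2 was also called in E294K against Prdm14-/- cells (1.32, adjusted p = 0.0397).

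Of 20 repressors of the state, 1 was higher and 3 were lower in FH-Prdm14 than in Prdm14-/- cells, with a median difference of 0.21. Over all genes tested 13.8% were higher and 11.4% lower, so these counts are near the background of this comparison. Against wt serum+LIF cells 0 were higher in FH-Prdm14 cells and 5 lower, beside 932 and 755 of 13477 genes. In E294K against FH-Prdm14 cells 5 were higher and 0 lower, beside 856 and 1777 genes. Against FH-Mtgr1 cells 6 were higher in FH-Prdm14 cells and 3 lower, beside 3531 and 2069 of 13477 genes. Against wt 2i+LIF cells 1 was higher and 1 lower, beside 2089 and 1074 genes. In FH-Prdm14 against Prdm14-/- cells Max, the partner of Mga in a germline-silencing complex, was higher (0.64, adjusted p = 0.00649, limma). Lin28a, an RNA-binding protein (-0.71, adjusted p = 0.00484), Smchd1, a chromatin protein of X inactivation (-0.54, adjusted p = 0.0408), and the H3K9 methyltransferase gene Ehmt1 (-0.51, adjusted p = 0.0318) were lower. Each of these calls was lost in a fit without 1 library, with adjusted p up to 0.0664 for Max (without FH-Prdm14 F10), 0.0583 for Lin28a (without Prdm14-/- G6), 0.157 for Smchd1 (without FH-Prdm14 G6) and 0.248 for Ehmt1 (without Prdm14-/- G6).
Of 21 genes of telomere maintenance and recombination tested, 3 were higher and none lower, near the 13.8% of all genes tested that were higher, and the median was 0.26. These were the helicase gene Rtel1 (0.73, adjusted p = 0.0192), Nbn of the MRN complex (0.69, adjusted p = 0.0414) and Daxx, which loads histone H3.3 (0.51, adjusted p = 0.0159). Their calls were also lost without single libraries, with adjusted p up to 0.169 for Rtel1 and 0.359 for Nbn (both without Prdm14-/- G6) and 0.102 for Daxx (without FH-Prdm14 F10). Tert, the catalytic subunit of telomerase, differed by 0.29 (adjusted p = 0.187).

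Markers of other cells were compared in the same fit, in which 13.8% of all genes tested were higher and 11.4% lower. The 8 genes of extraembryonic endoderm added up to 14.7 to 18.9 RPKM in FH-Prdm14 cells, 38.9 to 54.3 RPKM in Prdm14-/- cells and 25.6 to 34.6 RPKM in E294K cells. Of the 6 tested, 3 were lower in FH-Prdm14 than in Prdm14-/- cells and none higher, namely Dab2 (-2.001), Col4a1 (-1.48) and Gata4 (-1.35). The call of Gata4 was lost without Prdm14-/- F10 (adjusted p = 0.193). The 8 fibroblast markers added up to 14.0 to 16.2 RPKM in FH-Prdm14 cells and 16.9 to 22.4 RPKM in Prdm14-/- cells, and 1 of the 4 tested was lower, Col1a2 (-1.67, adjusted p = 0.0173, and 0.202 without Prdm14-/- G6). Of the 8 mESC markers, 4 were higher in FH-Prdm14 cells, namely Tdgf1 (1.43), Nanog (1.33), Fgf4 (1.23) and Pou5f1 (0.94), and 1, Lin28a, was lower. The calls of Tdgf1 (adjusted p = 0.0736) and Fgf4 (adjusted p = 0.0504) were lost without Prdm14-/- G6. The part of these shifts in the Zscan4 levels was not tested.

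The genes whose levels were most like the Zscan4 sum over the 15 libraries were sought by Pearson's r of log2(RPKM + 0.5), which serves as a description, since the libraries share conditions and clones and the FH-Prdm14 libraries weigh heavily. The 10 highest were Gm12794 (r = 0.970), Gm8300 (0.969), AA792892 (0.967), D17Ertd648e (0.962), Gm7102 (0.961), Speer8-ps1 (0.960), Gm2022 (0.950), Gm4971 (0.949), Gm8994 (0.946) and Gm5039 (0.942). Of these, Gm12794, Gm8300 and Gm2022 were on the 2-cell-like list.
Gm8994 was at 237 (G6) and 127 RPKM (F10) in FH-Prdm14 cells and at most 13.2 RPKM elsewhere, and D17Ertd648e at 198 and 128 RPKM against at most 17.1 RPKM. Speer8-ps1 was the lowest of the 10, with 2.78 and 2.04 RPKM in FH-Prdm14 cells and at most 0.938 RPKM in the others. The choice by likeness favours genes that are high in these libraries, so their separation is no separate finding. By Spearman's rho, 7 of the 10 were again among the 10 highest.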

How the data were processed

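RNA was purified with oligo-dT. Tophat (genome mm9) and HTSeq (RefSeq genes) served the authors for alignment and counting, and they deposited RPKM values with gene lengths. The labels also name GRCm38 without a role. Values multiplied by length gave whole reads for 100% of values (tolerance 0.001), and their sums are the depth.

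log2(RPKM + 0.5) of genes with at least 1 RPKM in at least 2 libraries was fitted with 1 mean per condition in limma 3.58.1 (R 4.3.3, with a mean-variance trend), with Benjamini-Hochberg adjustment and a threshold of 0.05. Nothing in the labels says that libraries of a condition are separate cultures beyond the clone, so p-values measure the spread between these libraries and clones. The fit was also run on simulated reads with the same extra spread for every gene and no clone effects. The genes changed there had more reads than most Zscan4 values outside FH-Prdm14 cells. The simulation is therefore no check of the Zscan4 results. The family sum has no p. Intervals of reads cover counting error only.

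Clones pair the libraries by design. Same-clone deviations correlated with r between -0.18 and 0.30. Fits with the clone as a replicate block, other pseudocounts, no filter, only the compared conditions, median-of-ratios scaling, voom on reads and without each library were run as alternatives.

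The members, gene lists and motifs were chosen with earlier results of these data known. Genes named are all members, the 10 genes most like their sum, the called genes with the largest difference between FH-Prdm14 and Prdm14-/- cells in each list (up to 4 for the lists described by name), other called Zscan genes, the targeted genes and the 3 nearest genes on each side. Sequences came from NCBIM37 with GENCODE M1 and were read with Python 3.11.15 (numpy 2.4.6, pandas 2.3.3, scipy 1.17.1, Biopython 1.88, numba 0.67.0). ChIP-seq libraries were not used here.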

Additional observations from a re-analysis of the deposited data

Results flagged for a closer look

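The effect of adding a gene back differed between the 2 knockout lines for the 5 Zscan4 members other than Zscan4b, a test chosen after the values were seen. In this direction, 17.1% of all genes tested were called. The change with FH-Prdm14 minus the change with FH-Mtgr1 was 4.21 for Zscan4a (standard error 0.64, adjusted p = 0.000654), 3.89 for Zscan4c (0.65, adjusted p = 0.00119), 3.86 for Zscan4f (0.73, adjusted p = 0.00229), 3.83 for Zscan4d (0.62, adjusted p = 0.000968), 2.93 for Zscan4e (0.54, adjusted p = 0.00195) and 2.46 for Zscan4b (0.41, adjusted p = 0.00114) on the log2 scale (Zscan4b was tested only through the FH-Prdm14 libraries and was bound to differ), from the interaction term in limma with Benjamini-Hochberg adjustment. Over the 17 alternatives run, some of which left 1 library in a condition, the difference ran from 2.27 (Zscan4e) to 5.16 (Zscan4d) for the members other than Zscan4b. The sum of the family was higher with FH-Prdm14 in 2 of 2 clones and lower with FH-Mtgr1 in 3 of 3 clones than in the knockout cells. In clone C3 this rested on 21 reads with FH-Mtgr1 and 23 reads without it, with overlapping intervals of counting error. With all libraries in the fit, no member was called between Mtgr1-/- and FH-Mtgr1 cells.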

How the results depend on the processing

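Across the alternatives that left out no library, the 5 members other than Zscan4b were called in FH-Prdm14 against Prdm14-/-, FH-Mtgr1 and wt 2i+LIF cells. Zscan4b, which was bound to differ, was called there too. In E294K against FH-Prdm14 cells 5 or 6 members were called, Zscan4b included, and none in Prdm14-/- or 2i+LIF against wt serum+LIF cells. In E294K against Prdm14-/- cells 1 member was called when no other condition entered the fit. With the replicate block by clone 1 was called in Mtgr1-/- against FH-Mtgr1 cells, and the block changed no other call of a Zscan4 member. Leaving out single libraries gave 3 to 6 called members for FH-Prdm14 against wt serum+LIF cells, 0 to 4 for Mtgr1-/- against FH-Mtgr1 cells and 0 to 1 for Mtgr1-/- against wt serum+LIF cells. Without both clone C3 libraries (chosen after the data were seen) the last 2 counts were 3 and 1. The cause of these changes was not tested.

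The sign changed only for values past no threshold (adjusted p between 0.591 and 0.963). Zscan4b in E294K against Prdm14-/- cells became 0.11 with a pseudocount of 0.1 and 0.31 with voom, and ran from -0.32 to 0.31 when single libraries were left out. Likewise, in Prdm14-/- against wt serum+LIF cells, Zscan4b ran from -0.071 to 0.56 and Zscan4d from -0.30 to 0.082. In Mtgr1-/- against wt serum+LIF cells, the values without single libraries ran from -0.081 to 0.86 for Zscan4a, -0.040 to 0.85 for Zscan4d, -0.56 to 0.24 for Zscan4e and -0.18 to 0.63 for Zscan4f, and Zscan4e was at 0.24 without both C3 libraries.

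The difference in summed level between FH-Prdm14 and Prdm14-/- cells lay between 3.33 and 4.10 when single libraries were left out, and between 3.59 and 3.83 otherwise. For Mtgr1-/- against FH-Mtgr1 cells it lay between 0.36 and 1.73 without single libraries or both of C3, and for Mtgr1-/- against wt serum+LIF cells between -0.29 and 1.08. Median-of-ratios scaling moved the median difference of all genes from 0.11 to 0.00079 for FH-Prdm14 against FH-Mtgr1 cells, from 0.09 to -0.02 against wt 2i+LIF cells, from -0.10 to 0.02 for 2i+LIF against serum+LIF cells and from -0.11 to 0.02 for Mtgr1-/- against wt serum+LIF cells. Zscan4b and Zscan4e had at most 12 and 32 reads in a library outside FH-Prdm14 cells, so small differences there could not be detected.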
